A study of Mus musculus with 24 samples.

Results

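Mitochondrial ribosomal protein genes are the nuclear genes for the proteins of the mitoribosome, the ribosome that translates inside mitochondria. They were taken from the gene table by symbol, as every row named Mrpl or Mrps followed by a number and at most 1 letter, with at least 0.5 CPM, the count scaled to library size, in at least 3 samples. The rule used no difference between groups. It matched 78 genes, and all 78 passed the CPM minimum, out of 13901 genes tested and 39253 listed. The proteins of 51 of them belong to the large subunit and those of 26 to the small subunit. Mrps18a and Mrps30 were counted with the large subunit, where their proteins sit in spite of their names. Mrps36 was counted with neither, since its protein is a component of the 2-oxoglutarate dehydrogenase complex.

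The RNA-seq data came from 24 cultures of Neuro2A cells, a wild-type mouse neuroblastoma line, in 8 groups of 3 independent biological replicates. In 6 groups, cells were transiently transfected with plasmids for a programmable RNA nuclease and its guide (crRNA) and were harvested after 48 hr. The nucleases were RfxCas13d, an RNA-guided RNase that can also cut bystander RNA once activated, a high-fidelity form of it (HiFi), and DiCas7-11, which cuts RNA by a different mechanism. Each was given a crRNA against the mouse ataxin-2 mRNA (mATXN2) or a non-targeting crRNA (NTG). Of the 2 other groups, 1 was left untransfected and 1 received an ASO, an antisense oligonucleotide aimed at ataxin-2. No harvest time was given for these 2 groups, so it is not known if the comparisons with untransfected cells are matched in time. In transiently transfected cultures some cells carry no plasmid, so each value is a mean over cells with and without the nuclease. There was no group with a control ASO, so the ASO and the act of delivering it cannot be told apart. The columns of the deposited table head the NTG arms EV and the targeting arms G12, and they were matched to the labels by effector, arm and replicate number. The sources used here leave unclear if the EV cells received a non-targeting guide or an empty vector, and how G12 relates to the guide number of the labels, so each value given for NTG is that of the EV columns.

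Mitochondria keep a small genome whose protein products are nearly all subunits of the respiratory chain and ATP synthase. A dedicated ribosome with its own rRNAs makes them, and every protein of that ribosome is encoded in the nucleus, made in the cytosol and imported. The small subunit holds the decoding centre and the path of the mRNA. The large subunit holds the peptidyl transferase centre, the exit tunnel and the stalk that recruits elongation factors. Many nuclear genes for mitochondrial proteins have promoters with sites for nuclear respiratory factor 1 (NRF1) and for ETS-family factors such as GABP.

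Promoter windows of the mouse RefSeq annotation (GRCm38.p6) were at hand for 69 of the 78 genes, and the 250 bases before the most upstream start were searched on both strands for short motif cores. The NRF1 core GCATGCGC stood in 8 of the 69 windows (11.6%), against 2.31% of all 27025 gene promoters and 4.4% of the 10839 promoters of tested genes. The ETS core CCGGAAG stood in 16 windows (23.2%), against 7.07% of all and 13.7% of tested promoters. The YY1 core AAGATGGCG was found in 2 windows (2.9%), against 0.592% of all and 1.14% of tested promoters. The E-box CACGTG was found in 5 (7.25%), against 6.04% and 8.17%. In all, 27 of the 69 windows held at least 1 of the 4 motifs, and 42 held none. These matches describe letters in a window and not sites bound by a factor. The 4 promoters below are shown because their genes carry the results: Mrpl12 and Mrpl22 were higher in several groups than in untransfected cells, Mrps24 had the lowest p-value of the 78 genes in the RfxCas13d comparison, and Mrpl17 was lower in the cells given the ASO. Mrpl17 was chosen after its values were seen, as a second window with both the NRF1 and the ETS core. Each is written 5′ to 3′ on the strand of the gene, without bases that the GENCODE M21 annotation places in an exon, with the motif matches in capitals.
Mrpl12, chr11:120484387-120484612, plus strand: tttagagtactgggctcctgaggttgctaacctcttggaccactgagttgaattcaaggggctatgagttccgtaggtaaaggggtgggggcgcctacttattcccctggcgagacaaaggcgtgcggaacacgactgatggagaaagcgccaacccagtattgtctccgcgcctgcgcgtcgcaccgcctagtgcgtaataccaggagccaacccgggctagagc
Mrpl22, chr11:58171414-58171660, plus strand: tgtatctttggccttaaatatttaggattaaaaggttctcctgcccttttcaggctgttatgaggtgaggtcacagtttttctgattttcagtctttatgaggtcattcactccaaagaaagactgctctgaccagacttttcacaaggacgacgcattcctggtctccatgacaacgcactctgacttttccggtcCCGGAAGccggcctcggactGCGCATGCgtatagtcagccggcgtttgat
Mrps24, chr11:5707702-5707951, minus strand: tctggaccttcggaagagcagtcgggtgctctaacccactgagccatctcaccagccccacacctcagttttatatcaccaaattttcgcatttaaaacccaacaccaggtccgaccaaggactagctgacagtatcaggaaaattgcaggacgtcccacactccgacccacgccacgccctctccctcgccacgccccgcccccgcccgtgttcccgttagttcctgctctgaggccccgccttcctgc
Mrpl17, chr7:105811100-105811337, minus strand: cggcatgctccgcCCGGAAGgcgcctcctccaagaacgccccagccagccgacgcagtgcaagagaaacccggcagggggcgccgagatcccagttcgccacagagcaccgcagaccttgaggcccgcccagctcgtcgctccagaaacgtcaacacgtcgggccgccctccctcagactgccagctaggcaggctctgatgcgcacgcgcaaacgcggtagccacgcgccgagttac
The Mrpl22 window held 1 ETS core followed by 1 NRF1 core close to the start. In the Mrpl17 window the ETS core lay at the far end, and its NRF1 core lies in exonic bases that are not shown. None of the 4 motifs was found in the windows of Mrpl12 or Mrps24, which says only that these letters are not in them.

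The libraries held 12665725 to 22504999 counts, with the highest totals in the ASO group (21874644 to 22504999). Replicates of DiCas7-11 NTG stood apart, differing by 3.33 to 5.58 times counting noise in chi-square, where pairs in the other 7 groups differed by 1.68 to 2.55 times. Both DiCas7-11 comparisons use that arm, and their values without each of its libraries are given below where they change. The marker genes fit the label of a neuroblast line in part: 13 of 16 neuroblastoma and neuron markers passed the CPM minimum and summed to 2080 to 2310 CPM per library, whereas the neurofilament genes Nefl and Nefm did not pass it. Summed markers of glia were at 14.3 to 19.3 CPM, of fibroblasts at 5.18 to 8.55 CPM, of endothelium at 5.82 to 10.1 CPM and of immune cells at 0.0641 to 2.41 CPM. Ataxin-2 mRNA (Atxn2) was at 98.7 to 104 CPM with HiFi and mATXN2 against 112 to 123 CPM with HiFi and NTG. The change was -0.23 ± 0.0369 on the log2 scale (SE; adjusted p = 0.00157, edgeR's quasi-likelihood test with Benjamini-Hochberg adjustment, as for every adjusted p here). With DiCas7-11 it was -0.20 ± 0.0372 (adjusted p = 0.00557), and with RfxCas13d it was -0.10 ± 0.037 and not called (adjusted p = 0.178). The DiCas7-11 call was lost without its NTG replicate 2 (adjusted p = 0.0707) or its mATXN2 replicate 1 (adjusted p = 0.059). In the ASO group Atxn2 fell by 57.8% (adjusted p = 1.65e-19).

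Together the 78 genes made up a small and even part of the transcriptome, 0.352% to 0.381% of each library after scaling by the trimmed mean of M-values (TMM). In untransfected cells their levels ran from 7.46 CPM for Mrpl57 to 123 CPM for Mrpl10, with a median of 43.8 CPM. The median member stood at percentile 62.2 of the levels of all tested genes. Between the lowest and the highest of the 24 libraries a member differed by 1.25-fold at the median, from 1.10-fold for Mrps30 to 1.99-fold for Mrpl57, the member with the fewest counts. Their coding sequences were short, with a median of 582 bases against 1420 bases over the 12128 tested genes with a known coding length. In bulk RNA a lower level per cell and fewer cells with the gene on cannot be told apart.

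Per kilobase of transcript, the order of levels in untransfected cells began with Mrpl42 at 133 CPM per kb, Mrpl12 at 92.3 and Mrps36 at 84.2. Mrpl42 is a protein found only in mitochondrial ribosomes. Mrpl12 forms the stalk of the large subunit, the site where translation factors bind. At the bottom was Mrpl57 at 2.59 CPM per kb, on the longest-coding transcript of an annotation of another build, so this order is approximate. Mrps12, which lines the decoding centre, stood at 14.7 CPM per kb (13 ± 1.04 CPM, SD, n = 3). Mrpl3, which lies near the peptidyl transferase centre, stood at 14.1 CPM per kb, next to Mrps12, and Mrpl2, of the same region, stood at 48.4. The 3 paralogs of the bacterial protein S18 were close together at 51.2 CPM per kb for Mrps18a, 51.3 for Mrps18b and 40.1 for Mrps18c. Mrpl58, a peptidyl-tRNA hydrolase built into the large subunit, stood at 18.5 CPM per kb and Mrpl11, of the stalk base, at 10.6.

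**Figure D1:**
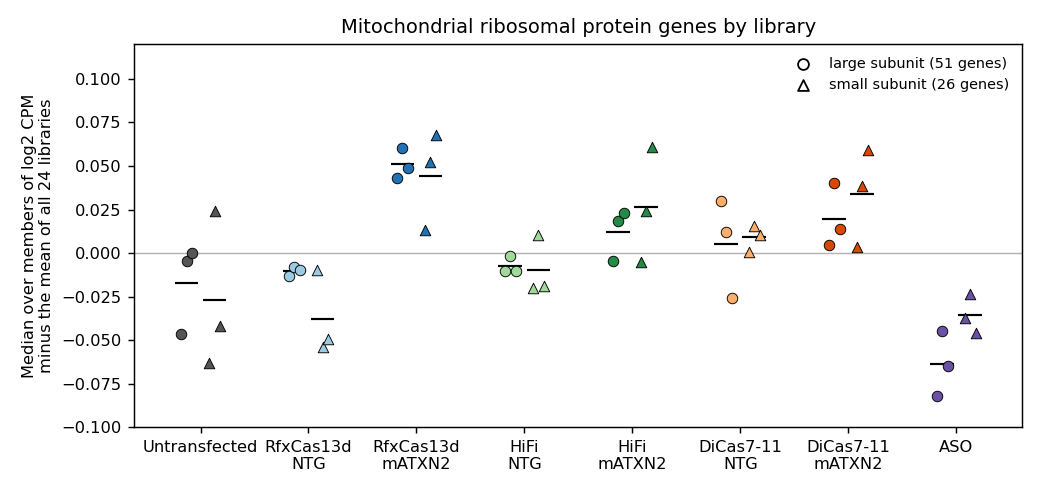
Median over the genes of each subunit of the log2 CPM minus that gene's mean over all 24 libraries (vertical axis), for the 3 libraries of each group (points; circles for the 51 large subunit genes, triangles for the 26 small subunit genes; bars are group means). The 3 RfxCas13d mATXN2 libraries lie above 0 and the 3 ASO libraries below 0 for both subunits, and the whole span is -0.0818 to 0.0676.

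The first comparison asked how these genes stood when each nuclease was aimed at ataxin-2, relative to the same nuclease with NTG. With RfxCas13d, 64 of the 78 genes had a higher level with mATXN2 than with NTG (82.1%, against 50.5% of all tested genes). The shift was small, with a median of 0.07 on the log2 scale against 0.0016 over all tested genes. The summed level of the 78 genes was 3613 to 3652 CPM in the 3 NTG libraries and 3727 to 3812 CPM in the 3 mATXN2 libraries, which do not overlap. By edgeR 2 of the 78 genes were called, both up, where 1.39% of all tested genes were called in either direction. The limma-trend test, adjusted over the comparisons together, called 8 members, all up, and DESeq2 called 1. The share of all genes called by these tests is not given, here or below, so 1.39% is not their background. An unadjusted p under 0.05 was found for 18 of the 78 genes (23.1%) and for 13.8% of all tested genes. The small subunit genes had a median of 0.08 (20 of 26 higher) and the large subunit genes a median of 0.05 (43 of 51 higher). When values were corrected for coding length, the median over the 78 genes was 0.0423.

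Mrps24, a protein of the small subunit at the mRNA entry side, was at 26.3, 27.4 and 28.3 CPM with RfxCas13d and NTG. It was at 32.4, 33.2 and 32.7 CPM with mATXN2. The groups did not overlap, and the mATXN2 libraries were the higher ones. The rise was 0.26 ± 0.0559 on the log2 scale, or 19.8% (adjusted p = 0.0147). Untransfected cells had 29.1, 28.6 and 31.1 CPM, which lie between both groups. Mrps7, which organizes the head of the small subunit, was at 69.6, 66.1 and 67 CPM with NTG and at 72.4, 78.5 and 76.6 CPM with mATXN2. It rose by 0.17 ± 0.0435 (12.4%; adjusted p = 0.0456). Mrpl28, of the large subunit, was at 56.2, 58.5 and 60.2 CPM with NTG and at 65.9, 66.7 and 62.7 CPM with mATXN2, a difference of 0.16 ± 0.042 that was not called (adjusted p = 0.0556). The calls depended on the libraries used. That of Mrps24 was lost without NTG replicate 1 (adjusted p = 0.107), NTG replicate 2 (0.0533), mATXN2 replicate 2 (0.0732) or mATXN2 replicate 3 (0.0693). That of Mrps7 was lost without any of the 3 NTG replicates, or without mATXN2 replicate 2 or 3 (adjusted p = 0.103 to 0.217), with DESeq2's size factors (0.0519) and under the coding length correction (0.0829). So 0 members were called without NTG replicate 1, NTG replicate 2, mATXN2 replicate 2 or mATXN2 replicate 3, and 4 were called without NTG replicate 3. The largest differences belonged to Mrpl57 (0.38 ± 0.117; adjusted p = 0.0981) and Mrpl41 (0.29 ± 0.0982; adjusted p = 0.138), which are low genes, were not called and were picked out after their values were seen.

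Apart from Mrps7, the members chosen for a central role were not called with RfxCas13d. Mrps12 of the decoding centre differed by 0.11 ± 0.0889 and Mrps18a, Mrps18b and Mrps18c by 0.10 ± 0.0519, 0.06 ± 0.0458 and 0.06 ± 0.0687. Mrpl2 and Mrpl3 near the peptidyl transferase centre differed by -0.0047 ± 0.0522 and -0.03 ± 0.0445. The stalk proteins Mrpl11 and Mrpl12 differed by 0.05 ± 0.0699 and 0.02 ± 0.0307, Mrpl58 by -0.01 ± 0.0491 and Mrps36 by 0.03 ± 0.0543. Their adjusted p-values were 0.416 to 0.981.

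With HiFi, 55 of the 78 genes were higher with mATXN2 (70.5%, against 49.3% of all tested genes), and the median was 0.03. By edgeR 0 members were called, where 0.295% of all tested genes were, and 6 (7.69%) had an unadjusted p under 0.05, against 7.45% of all tested genes. The limma-trend test called 1 and DESeq2 called 0. The summed level was 3644 to 3677 CPM with NTG and 3675 to 3759 CPM with mATXN2, and the groups overlapped. Mrpl12 had the lowest p-value, at 136, 134 and 132 CPM with NTG and 143, 144 and 140 CPM with mATXN2 (0.09 ± 0.0301; adjusted p = 0.345). Its mATXN2 libraries were the higher ones, without overlap, but the difference did not pass the threshold across all genes. Mrpl33 of the large subunit differed by 0.15 ± 0.0574 (adjusted p = 0.504) and Mrps10 of the small subunit by 0.14 ± 0.0555 (adjusted p = 0.513).

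With DiCas7-11, 45 of the 78 genes were higher with mATXN2 (57.7%) and the median was 0.0070. By edgeR 0 members were called, where 0.942% of all tested genes were, and 7 (8.97%) had an unadjusted p under 0.05, against 14% of all tested genes. The limma-trend test called 1, DESeq2 called 0, and without NTG replicate 1 edgeR called 1. The summed level was 3659 to 3725 CPM with NTG and 3671 to 3770 CPM with mATXN2, with overlap. Mrpl12 again had the lowest p-value, at 132, 136 and 131 CPM with NTG and 140, 143 and 141 CPM with mATXN2 (0.09 ± 0.0304; adjusted p = 0.166). Mrpl52, a mitochondria-specific protein of the large subunit, was at 17.4, 17.6 and 16.3 CPM with NTG and 14.4, 16.4 and 13.9 CPM with mATXN2 (-0.20 ± 0.0782; adjusted p = 0.222). Mrpl43 differed by 0.14 ± 0.0547 (adjusted p = 0.232). The median over members was 0.0261 without mATXN2 replicate 1.

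The responses to the 3 nucleases were also compared with each other. The test of the difference between responses called 0 members and 0% of all tested genes in each of the 3 pairings, and DESeq2 called 0 members. Of all tested genes, 855 had an unadjusted p under 0.05 for HiFi minus RfxCas13d, 1084 for DiCas7-11 minus RfxCas13d and 1028 for DiCas7-11 minus HiFi. Of the 78 genes these were 6, 7 and 5, and the medians were -0.04, -0.06 and -0.02. The lowest p-values belonged to Mrpl23, a protein at the exit of the tunnel (-0.25 ± 0.0825; adjusted p = 0.708), Mrpl42 (-0.17 ± 0.0595; adjusted p = 0.53) and Mrpl23 again (0.23 ± 0.0823; adjusted p = 0.635). Such calls concern single genes and do not test the share of higher members. For HiFi minus RfxCas13d, 26 of the 78 genes were higher (33.3%, against 50% of all tested genes). For DiCas7-11 minus RfxCas13d it was 18 (23.1%, against 48.3%), and for DiCas7-11 minus HiFi 33 (42.3%, against 48.8%). Whether the share of higher members with RfxCas13d differs from that with the other nucleases was not tested.

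Averaged over the 3 nucleases, the response to mATXN2 had 5 members up and 0 down, where 5.19% of all tested genes were called, and the median was 0.03. These were Mrpl12, Mrpl28, Mrps24, Mrps26 and Mrps28. Mrps28, of the small subunit, had a mean response of 0.14 ± 0.0382 (adjusted p = 0.0214). Mrps26, also of the small subunit, had a mean response of 0.12 ± 0.0325 (adjusted p = 0.0324). Mrps24 had a mean response of 0.14 ± 0.0318 (adjusted p = 0.00826) and was still called whichever library was left out. By single nuclease it was called only with RfxCas13d (0.26). With HiFi it was at 27.9, 28.8 and 28.7 CPM with NTG and 27.9, 30.5 and 31.9 CPM with mATXN2. With DiCas7-11 it was at 33.1, 29.1 and 29.7 CPM and 32.2, 32.4 and 31.6 CPM. The arms overlapped in both. The call of Mrps28 was lost without RfxCas13d NTG replicate 3 (adjusted p = 0.0564), HiFi mATXN2 replicate 2 (0.0523) or DiCas7-11 NTG replicate 2 (0.0654). That of Mrps26 was lost when any of 9 libraries was left out (adjusted p = 0.0504 to 0.0891). The count was 3 without RfxCas13d NTG replicate 1 and 8 without DiCas7-11 NTG replicate 1.

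**Figure D2:**
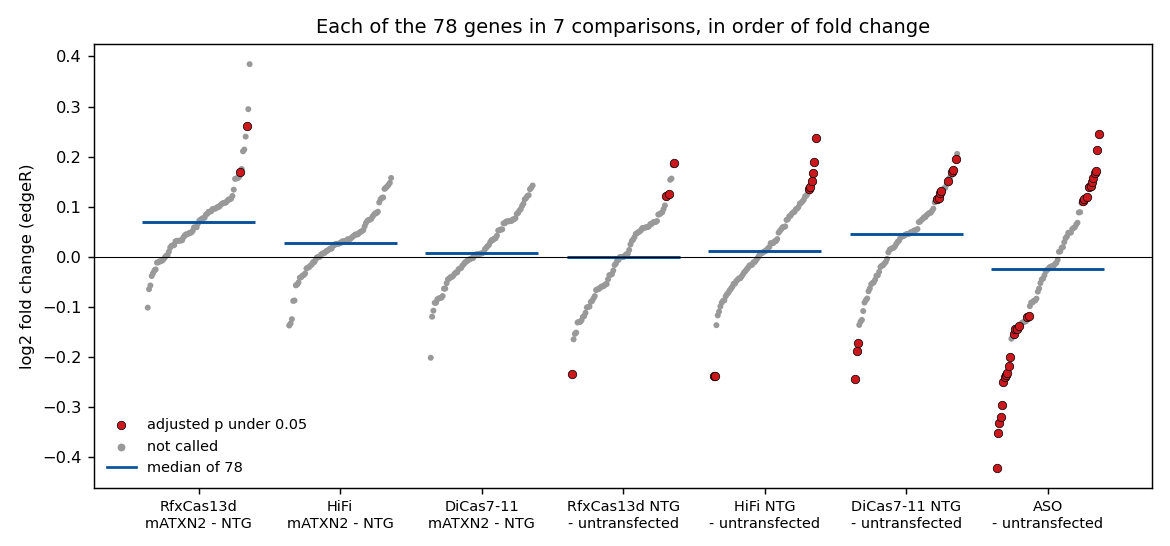
Log2 fold change (vertical axis) of each of the 78 genes in 7 comparisons, ordered within each from lowest to highest. Red points were called at an adjusted p under 0.05 and blue bars are medians: the median is highest with RfxCas13d and mATXN2 (0.07), and calls in both directions are most numerous for the ASO (11 up, 17 down).

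The next comparisons set the NTG cells of each nuclease against untransfected cells, which shows how the genes stood in cells that carried the plasmids without a guide to ataxin-2. Neuron markers moved in the same comparisons: of 13 tested, 0 were up and 4 down with RfxCas13d, 1 up and 5 down with HiFi and 1 up and 3 down with DiCas7-11, with Tubb3 and Uchl1 down in each. The fibroblast marker Col1a1 was down with HiFi and the endothelial marker Pecam1 with DiCas7-11, and the part of any of these in the members' values was not tested. The same 3 untransfected libraries served as the control in all of them and in the ASO comparison, so these comparisons are not independent. With RfxCas13d and NTG, 3 members were up and 1 was down, where 11.3% of all tested genes were called. With HiFi and NTG, 6 were up and 2 down, where 20.9% were called. With DiCas7-11 and NTG, 8 were up and 3 down, where 21.9% were called. Of the 78 genes 39, 44 and 53 were higher than in untransfected cells (50%, 56.4% and 67.9%). The shares of all tested genes that were higher were 48.8%, 48.7% and 48.6%. The shares of members called were 5.13%, 10.3% and 14.1%, each below that of all tested genes. DESeq2 called 2 members for RfxCas13d, and 5 were called for DiCas7-11 when only the groups compared were fitted. The medians over members were -0.0001, 0.01 (0.0303 under the coding length correction) and 0.05, and the corresponding summed levels were 3613 to 3652, 3644 to 3677 and 3659 to 3725 CPM against 3518 to 3639 CPM in untransfected cells. Untransfected replicate 1 had the lowest sum of those groups, at 3518 CPM, and without it the 3 comparisons called 1, 5 and 5 members. Without RfxCas13d NTG replicate 2 or 3 the count for RfxCas13d was 2, without HiFi NTG replicate 2 that for HiFi was 4, and without DiCas7-11 NTG replicate 2 or untransfected replicate 2 that for DiCas7-11 was 5 or 7.

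Mrpl12, the stalk protein, was at 118, 121 and 125 CPM in untransfected cells. It was at 133, 134 and 130 CPM with RfxCas13d and NTG, at 136, 134 and 132 CPM with HiFi and NTG and at 132, 136 and 131 CPM with DiCas7-11 and NTG. All 9 NTG libraries were above all 3 untransfected libraries. The rises were 0.13 ± 0.0312 (adjusted p = 0.00809), 0.14 and 0.13, each called. The RfxCas13d call was at an adjusted p of 0.0504 without untransfected replicate 1. Mrpl14, which sits on the face of the large subunit that meets the small one, was at 24, 25.9 and 23.7 CPM in untransfected cells. It was at 21.2, 21.3 and 20.2 CPM with RfxCas13d and NTG, at 21, 22.1 and 19.4 CPM with HiFi and NTG and at 22, 18.7 and 21.6 CPM with DiCas7-11 and NTG. Here every NTG library was below every untransfected library. The falls were -0.23 ± 0.0691 (adjusted p = 0.0262), -0.24 ± 0.0689 (adjusted p = 0.0135) and -0.24 ± 0.0697 (adjusted p = 0.0115). All of these calls were lost without untransfected replicate 2 (adjusted p = 0.15, 0.0899 and 0.0801). Others were lost without RfxCas13d NTG replicate 1 or 3 (adjusted p = 0.0582 and 0.111), without HiFi NTG replicate 3 (0.0904) and without DiCas7-11 NTG replicate 2 (0.123). With mATXN2 in place of NTG, Mrpl14 was at 22.3, 24.3 and 24 CPM for RfxCas13d, at 22.5, 20.9 and 19.5 CPM for HiFi and at 22.5, 22.3 and 23.8 CPM for DiCas7-11, and none of these responses was called.

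Mrpl22, a protein of the polypeptide exit tunnel, was at 31.7, 31.7 and 33.7 CPM in untransfected cells. It was at 35.1, 37 and 37.9 CPM with RfxCas13d and NTG (0.19 ± 0.0584; adjusted p = 0.0356) and at 37, 35.6 and 37.9 CPM with HiFi and NTG (0.19 ± 0.0583; adjusted p = 0.0197). These 6 libraries were all above the untransfected ones, whereas DiCas7-11 and NTG gave 32.4, 37.8 and 34.2 CPM, which overlap them. Its calls were lost without untransfected replicate 1 or 2 (adjusted p = 0.0684 to 0.116) and also without RfxCas13d NTG replicate 2 or 3 (0.0847 and 0.129) and without HiFi NTG replicate 3 (0.0772). Mrpl15, another large subunit protein, was at 95, 107 and 98.7 CPM in untransfected cells and at 120, 113 and 112 CPM with DiCas7-11 and NTG (0.20 ± 0.0386; adjusted p = 0.000464). With RfxCas13d and NTG its rise was 0.12 ± 0.0387 (adjusted p = 0.0411), and that call was lost without untransfected replicate 1 or 3 (0.22 and 0.107) and without RfxCas13d NTG replicate 1 or 2 (0.112 and 0.118).

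Other calls belonged to 1 or 2 nucleases. Mrpl11, of the stalk base, was at 27.8, 33.5 and 35.1 CPM in untransfected cells and at 37.2, 38.5 and 37.5 CPM with HiFi and NTG (0.24 ± 0.071; adjusted p = 0.0166). Without untransfected replicate 1, the lowest library, its difference was 0.14 (adjusted p = 0.174), and without HiFi NTG replicate 2 its adjusted p was 0.0585. Mrps2, a small subunit protein, was at 98.2, 102 and 105 CPM in untransfected cells and at 116, 112 and 114 CPM with HiFi and NTG (0.17 ± 0.0375; adjusted p = 0.00178). Mrpl55, a mitochondria-specific large subunit protein, fell by 0.24 on the log2 scale with HiFi and NTG (-0.24 ± 0.065; adjusted p = 0.00911, or 0.068 without HiFi NTG replicate 2). With DiCas7-11 and NTG, Mrpl20, a large subunit protein, rose by 0.17 ± 0.0413 (adjusted p = 0.00287) and Mrps7 by 0.17 ± 0.0446 (adjusted p = 0.00653). The tunnel exit proteins Mrpl24 and Mrpl23 fell there, with changes of -0.19 ± 0.0532 (adjusted p = 0.0105) and -0.17 ± 0.059 (adjusted p = 0.0353). The Mrpl24 call was lost without untransfected replicate 1 (0.0845) or DiCas7-11 NTG replicate 2 (0.0832). The Mrpl23 call was lost without any of the 3 untransfected replicates or DiCas7-11 NTG replicate 2 or 3 (adjusted p = 0.0558 to 0.232). Exons of Mrpl24 overlap those of a gene on the opposite strand, as do those of Mrps7, and the kit marks strand but the strand setting of the counting was not given in the sources used here.

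**Figure D3:**
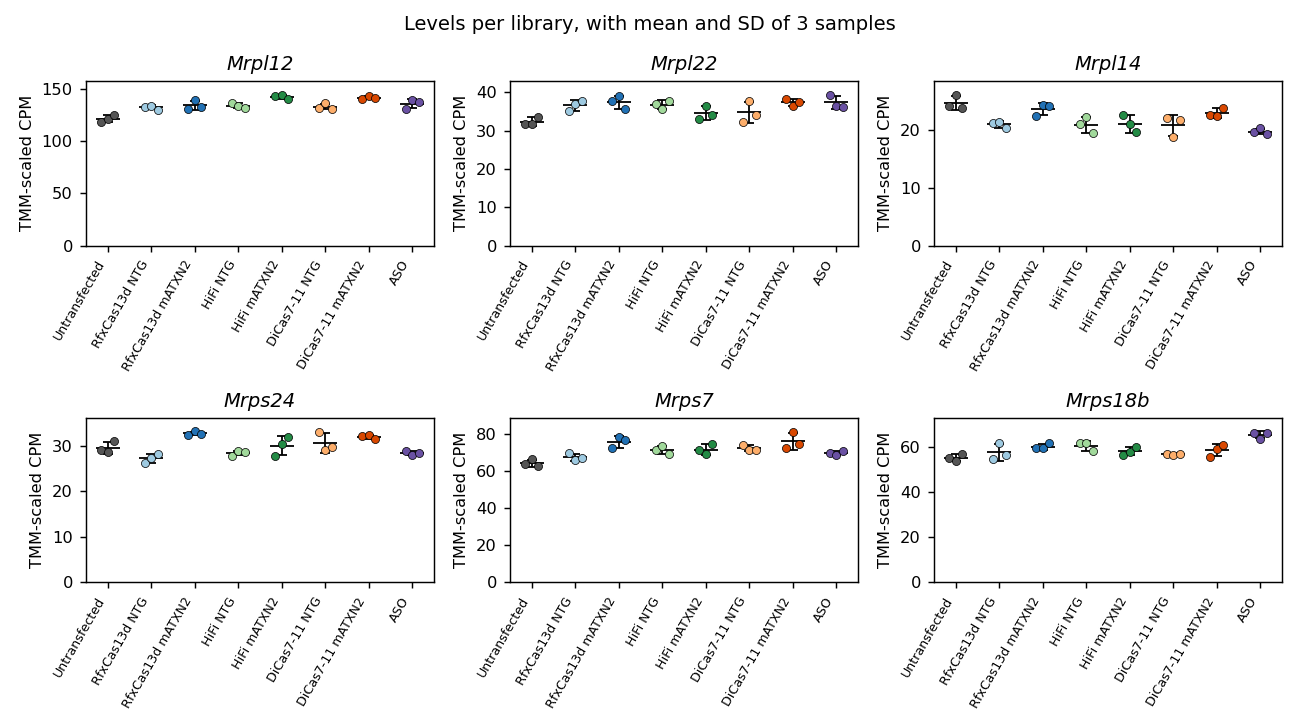
TMM-scaled CPM (vertical axes, from 0) of 6 members in each of the 24 libraries (points), with the mean and SD of the 3 samples per group. Mrpl12 is lowest and Mrpl14 highest in untransfected cells, at 118 to 125 CPM and 23.7 to 25.9 CPM, Mrps24 is higher with RfxCas13d and mATXN2 than with NTG, and Mrps18b is highest with the ASO at 63.6 to 66.4 CPM.

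The ASO group was compared with untransfected cells as the other means of lowering ataxin-2. Here 28 of the 78 genes were called, 11 up and 17 down, where 42.7% of all tested genes were called and the members' share was 35.9%. The median over members was -0.02, with a range of -0.42 to 0.24, and the summed level was 3528 to 3586 CPM against 3518 to 3639 CPM. The large subunit had 5 genes up and 12 down (median -0.05) and the small subunit 6 up and 5 down (median -0.01). Without 1 library the small subunit median ranged from -0.0335 to 0.0175, so its sign was not fixed. The large subunit median ranged from -0.0687 to -0.0373. A correction for coding length turned the sign of the median, to 0.033, and the split to 16 up and 10 down. Leaving out 1 library at a time gave 19 to 27 called members, with the fewest, 19, without untransfected replicate 3. ASO libraries also had the highest totals and TMM factors of 1.023 to 1.025, and the part of either in these values was not tested. Of the 13 neuron markers 4 were up and 5 down. The immune marker Cd68 was called up in this comparison (the summed immune markers stayed at or below 2.41 CPM), and Ptprc, Aif1, Cx3cr1 and Csf1r did not reach the CPM minimum.

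Among the members that rose, Mrps18b, a small subunit paralog of the S18 family, was at 55.1, 53.8 and 57.1 CPM in untransfected cells and at 66.4, 63.6 and 66.2 CPM with the ASO. The rise was 0.24 ± 0.0442 (adjusted p = 4.74e-05), and no group of the 8 had a higher mean. Its paralogs differed by 0.06 ± 0.0503 for Mrps18a and 0.05 ± 0.0651 for Mrps18c (adjusted p = 0.379 and 0.583). Mrpl22 was at 39.4, 36.5 and 36.3 CPM (0.21 ± 0.056; adjusted p = 0.00273) and Mrpl15 at 115, 112 and 113 CPM (0.17 ± 0.0373; adjusted p = 0.000454). Mrpl12 was at 131, 139 and 137 CPM, above all untransfected libraries (0.16 ± 0.0302; adjusted p = 0.000109). Mrps7 rose by 0.12 ± 0.0429 (adjusted p = 0.0244), a call lost without untransfected replicate 1 or 3 or ASO replicate 3 (0.0678, 0.0819 and 0.075). The other members that rose were Mrpl18, Mrpl47, Mrps23, Mrps26, Mrps27 and Mrps31.

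Among the members that fell, Mrpl57, a small mitochondria-specific protein of the large subunit, was at 7.58, 7.12 and 7.69 CPM in untransfected cells and at 5.79, 5.99 and 4.94 CPM with the ASO. The change was -0.42 ± 0.119 (adjusted p = 0.00501), and the ASO libraries were all lower. Mrpl34, a large subunit protein with a bacterial homolog, went from 20.3, 21.8 and 19.6 CPM to 16, 15.7 and 16.8 CPM (-0.35 ± 0.083; adjusted p = 0.001). Mrps33, of the small subunit, went from 43.4, 47.3 and 48.9 CPM to 37.5, 34.4 and 38.8 CPM (-0.33 ± 0.0612; adjusted p = 6.33e-05). In each of these the groups did not overlap. Mrpl14 was at 19.5, 20.2 and 19.3 CPM, the lowest mean of the 8 groups, with a change of -0.32. Mrpl17 was picked after its values were seen, and the NRF1 core of its window lies outside the stretch printed above. It went the other way from Mrpl22, from 46.8, 47.8 and 50.6 CPM to 40.7, 42.8 and 42.6 CPM (-0.20 ± 0.0498; adjusted p = 0.00169).

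Mrps12, of the decoding centre, was at 12, 14.1 and 13 CPM in untransfected cells and at 11.7, 10.2 and 11.3 CPM with the ASO (-0.24 ± 0.0861; adjusted p = 0.0278). Its call was lost without untransfected replicate 2 or 3 or ASO replicate 2 (adjusted p = 0.182, 0.0577 and 0.134), with DESeq2 (0.0863) and with limma-trend (0.0766). Mrpl58, the peptidyl-tRNA hydrolase, fell to 42, 45.3 and 43.2 CPM from 45.3, 51 and 47.7 CPM (-0.14 ± 0.0473; adjusted p = 0.0147). That call was lost without untransfected replicate 2 or ASO replicate 1 (0.162 and 0.0757) and under the coding length correction (0.0775). Mrpl2, Mrpl3, Mrpl11 and Mrps36 differed by 0.03, -0.02, 0.09 and -0.03, and none was called (adjusted p = 0.317 to 0.737). The other members that fell were Mrpl10, Mrpl13, Mrpl23, Mrpl50, Mrpl53, Mrpl54, Mrpl55, Mrps9, Mrps10 and Mrps25.

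**Figure D4:**
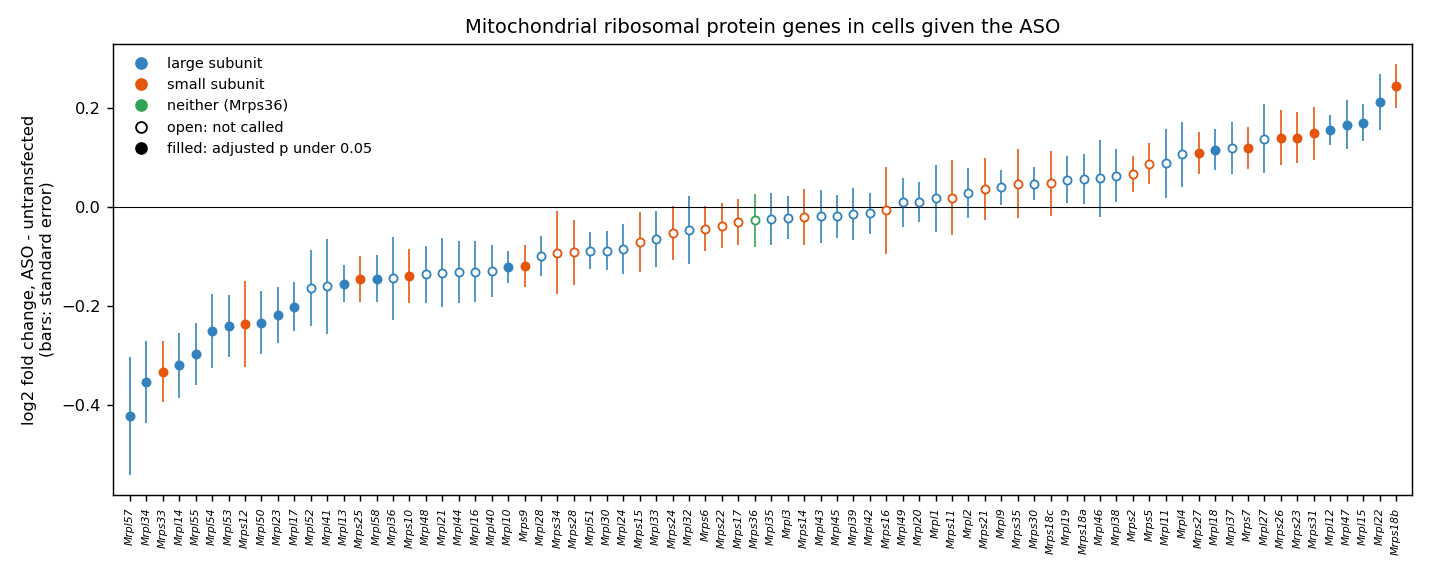
Log2 fold change (vertical axis; bars are standard errors) of the 78 genes, ASO against untransfected cells, ordered from the largest fall (Mrpl57, -0.42) to the largest rise (Mrps18b, 0.24). Filled points were called, and large subunit genes (blue) make up 12 of the 17 called falls and 5 of the 11 called rises.

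Over the 7 comparisons with a nuclease or the ASO and the mean response, 42 of the 78 genes were called in none and 23 in exactly 1. Mrpl12 was called in 5 and always up, Mrpl14 in 4 and always down, and Mrps7 in 4 and always up. Since the comparisons share control libraries and the same counts over all tested genes are not given here, these counts are only a description.

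Other genes of mitochondrial translation were read from lists of known function. Of 5 mitoribosome proteins that the symbol rule misses, 0 were called in the response of any nuclease, by edgeR, DESeq2 or limma-trend. With RfxCas13d 1 (20%) had an unadjusted p under 0.05, against 13.8% of all tested genes. Ptcd3, which binds the small subunit, rose with DiCas7-11 and NTG (0.18 ± 0.0409; adjusted p = 0.00212) and with the ASO (0.14 ± 0.0397; adjusted p = 0.00568). Chchd1 and Aurkaip1, small subunit proteins, fell with the ASO (-0.19 ± 0.0572 and -0.15 ± 0.0511; adjusted p = 0.00946 and 0.0198), and without untransfected replicate 2 only 1 of the 5 was called there. Of 26 genes for mitoribosome assembly and rRNA modification, edgeR and DESeq2 called 0 in the response of any 1 nuclease. The limma-trend test called 2 with RfxCas13d. An unadjusted p under 0.05 was found for 5 with RfxCas13d (19.2%), 4 with HiFi (15.4%) and 2 with DiCas7-11 (7.69%). Of all tested genes these shares were 13.8%, 7.45% and 14%. Malsu1, an assembly factor of the large subunit, rose in the mean response (0.19 ± 0.0469; adjusted p = 0.0137). Fastkd2, which binds mitochondrial rRNA, was the assembly gene called in each comparison with untransfected cells, at 0.24, 0.25 and 0.30 for the NTG cells and 0.20 for the ASO. With the ASO 5 assembly genes rose and 3 fell, or 30.8% of the list against 42.7% of all tested genes.

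Of 16 mitochondrial translation factors tested, edgeR and DESeq2 called 0 in the response of any nuclease and limma-trend called 1 with HiFi. An unadjusted p under 0.05 was found for 1 with RfxCas13d (6.25%), 1 with HiFi (6.25%) and 2 with DiCas7-11 (12.5%). Of all tested genes these shares were 13.8%, 7.45% and 14%. Gfm1, elongation factor G, rose with HiFi and NTG and with DiCas7-11 and NTG (0.15 ± 0.0353 and 0.16 ± 0.0355; adjusted p = 0.00355 and 0.00149). Tufm, elongation factor Tu, and Taco1, a translational activator, rose with DiCas7-11 and NTG (0.12 ± 0.0406 and 0.28 ± 0.0693). With the ASO, Taco1 rose, and Mrrf, the ribosome recycling factor, Guf1, an elongation factor, and Lrpprc, which stabilizes mitochondrial mRNA, fell (-0.20 ± 0.0702, -0.25 ± 0.0514 and -0.09 ± 0.0331). This is 25% of the list, against 42.7% of all tested genes. These 4 calls were reduced to 1 without untransfected replicate 3 and to 2 without untransfected replicate 2 or ASO replicate 1 or 2. Of 8 genes for mitochondrial DNA transcription and upkeep, 4 rose with the ASO: the transcription factor Tfb2m (0.16 ± 0.0525), the DNA polymerase subunits Polg and Polg2 (0.15 ± 0.0545 and 0.36 ± 0.114) and the helicase Twnk (0.23 ± 0.0571). Their adjusted p-values were 0.0131, 0.0288, 0.0124 and 0.00188. The share of 50% stood against 42.7% of all tested genes, and 3 of the 8 were called whichever of the 6 libraries was left out. Exons of Twnk overlap those of Mrpl43 on the opposite strand.

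Of 10 nuclear regulators of mitochondrial genes tested, Pprc1, a coactivator of respiratory genes, and Gabpb2, a subunit of GABP, were called up in each comparison with untransfected cells. In each NTG comparison 2 of the 10 were called (20%). For RfxCas13d, HiFi and DiCas7-11 the shares of all tested genes were 11.3%, 20.9% and 21.9%. With the ASO 5 of the 10 were called (50%), against 42.7% of all tested genes. Pprc1 rose by 0.11 ± 0.0336, 0.22 ± 0.0332 and 0.21 ± 0.0335 in the NTG cells of RfxCas13d, HiFi and DiCas7-11 and by 0.35 ± 0.032 with the ASO. Gabpb2 rose by 0.20 ± 0.0456, 0.27 ± 0.0452 and 0.19 ± 0.0459 and by 0.27 ± 0.0438. For RfxCas13d NTG, 0 of the 10 regulators were called without NTG replicate 3 and 1 without untransfected replicate 2. Pprc1 also rose with DiCas7-11 and mATXN2 over NTG (0.15 ± 0.032; adjusted p = 0.0197), where 0 regulators were called without DiCas7-11 NTG replicate 2 or mATXN2 replicate 1 or 2. With the ASO, Gabpa, the DNA-binding subunit of GABP, and Mycn, an oncogenic transcription factor of neuroblastoma, fell (-0.14 ± 0.0432 and -0.50 ± 0.1; adjusted p = 0.011 and 0.000186). Nrf1, the factor named for the NRF1 core, was not called in any of these comparisons.

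Cytosolic ribosomal protein genes were read beside those of the mitoribosome. With RfxCas13d and mATXN2 their values were close to the members': 82.9% were higher, against 82.1% of members, with a median of 0.05. With HiFi 75.6% were higher and the median was 0.03, and with DiCas7-11 the median was 0.0067 against 0.0070 over members. With RfxCas13d 13 of 82 (15.9%) were called, all up, where 1.39% of all tested genes were, but 0 to 6 were called when any 1 library was left out. In the NTG cells of RfxCas13d, HiFi and DiCas7-11 against untransfected cells, 43, 48 and 47 of the 82 were down and 1 was up, or 53.7%, 59.8% and 58.5% called against 11.3%, 20.9% and 21.9% of all tested genes, with medians of -0.08, -0.08 and -0.07. The members' medians there were -0.0001, 0.01 and 0.05. The count for RfxCas13d was 28 in either direction without untransfected replicate 3. With the ASO 65 were down and 1 was up (80.5% called, against 42.7% of all tested genes), with a median of -0.12. No test of the difference between the lists was run.

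**Figure D5:**
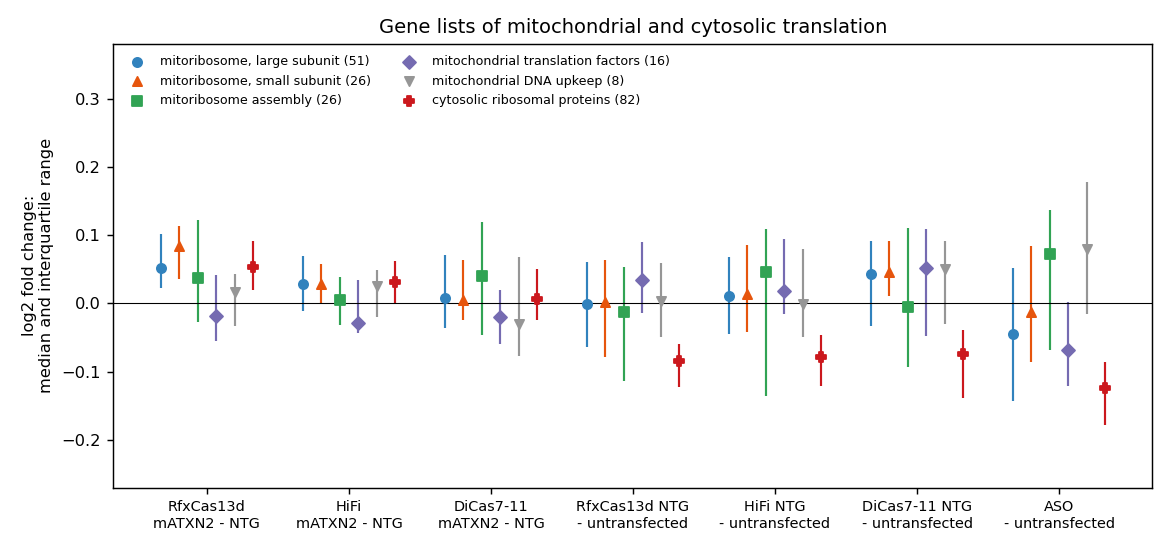
Median (points) and interquartile range (bars) of the log2 fold change over the genes of 6 lists, in 7 comparisons, with the number of genes tested in brackets. The mitoribosome medians stay between -0.05 and 0.08, whereas those of the cytosolic ribosomal proteins lie at -0.07 to -0.12 in the 4 comparisons with untransfected cells.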

How the data were processed

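The 24 RNA-seq libraries of Neuro2A cells fell into 8 groups of 3. Per the labels and the study's methods, libraries were made with a stranded mRNA kit, and the authors quantified reads with Salmon (version 1.5.2; R version 4.2.2) on the mouse transcriptome of GRCm39 correcting sequence and GC bias, and then made gene values with tximport's lengthScaledTPM. The deposited values are expected counts (estimated counts), not normalized for library size. A transcript with near-identical copies shares its reads between them in such estimates.

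Expected counts were rounded for edgeR (version 4.0.16, R 4.3.3). A gene was kept with 0.5 CPM or more in 3 or more libraries, and TMM-scaled CPM are the levels printed. The quasi-likelihood fit used all 24 libraries and 1 coefficient for each group, and p-values were adjusted by Benjamini-Hochberg within each comparison at 0.05. Fold changes are log2 values. The intervals are standard errors, and ± after CPM is the SD.

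The members and gene lists were chosen with earlier results of these data known. The named genes were, per comparison, up to 3 called members with the largest rise and 3 with the largest fall (under 3 called, the 3 with the lowest p), members with a known central role, and Atxn2. The lists were counted without a set test. Mtrfr was not in the table, Ppargc1a did not pass the CPM minimum, and mitochondrially encoded genes were not analysed here.

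In data simulated for the RfxCas13d comparison (13732 genes), 100 of 100 genes with a log2 change of 1 and 67 of 100 with a change of 0.3 were called, with 8 false calls. Replicate pairs differed by 1.68 to 5.58 times counting noise, with the values above 2.55 all in DiCas7-11 NTG. The alternatives were DESeq2's size factors, no filter, DESeq2 (version 1.42.0), limma-trend (version 3.58.1) with a prior count of 3 adjusted over the comparisons together, a replicate block, a lowess correction for coding length (span 0.3, 87.2% of genes matched to GENCODE M21), only the groups compared, and leaving out each library. Exons of 17 members overlap another coding gene in GENCODE M21, 16 of them on the opposite strand. Coordinates and sequences are those of RefSeq on GRCm38.p6. Mrpl4, Mrpl13, Mrpl15, Mrpl19, Mrpl38, Mrpl54, Mrps28, Mrps34 and Mrps35 had no promoter window at hand.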

Additional observations from a re-analysis of the deposited data

How the results depend on the processing

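For the genes named above, 758 of 866 values under an alternative kept their direction and their side of the threshold. These include genes that were not called in either fit. Of the others, 87 lost a call, 3 gained one and 18 changed sign. In the RfxCas13d comparison the number of members called was 2, against 1 with DESeq2's size factors, with DESeq2, with the coding length correction and with that correction plus the replicate block, and 8 with limma-trend. It ranged from 0 to 4 when 1 library was left out. The median over members was 0.0695, against 0.0423 and 0.0427 under the coding length correction without and with the replicate block. With limma-trend 1 member was called for HiFi and 1 for DiCas7-11, where leaving out libraries gave 0 to 1 and medians of 0.0067 to 0.0261. The mean response had 3 called members without the filter and 3 to 8 without 1 library. Against untransfected cells, RfxCas13d NTG had 2 called members with DESeq2 and 1 to 4 without 1 library. HiFi NTG had 4 to 8 without 1 library, and its median was 0.0303 and 0.0301 under the coding length correction without and with the block. DiCas7-11 NTG had 5 when only the groups compared were fitted and 5 to 11 without 1 library. For the ASO the median of -0.0249 became 0.033 and 0.0331 under the coding length correction without and with the block, and ranged from -0.0433 to -0.0186 without 1 library. The cause was not tested in any of these.

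Changes of sign concerned genes that were not called. Leaving out 1 library gave ranges of -8e-04 to 0.0986 for Mrps18c, -0.0435 to 0.043 for Mrpl2, -0.0799 to 0.0035 for Mrpl3, -0.0077 to 0.0362 for Mrpl12, -0.0587 to 0.0056 for Mrpl58 and -0.0295 to 0.0822 for Mrps36 with RfxCas13d, where Mrps36 was at -0.0227 and -0.0234 under the coding length correction without and with the block. With the ASO they were -0.0179 to 0.0666 for Mrpl2, -0.0454 to 0.0046 for Mrpl3, -0.0045 to 0.1531 for Mrpl11 and -0.0809 to 0.026 for Mrps36, and the coding length correction gave 9e-04 and 0.0013 for Mrpl3 and 0.1017 and 0.1019 for Mrps36.

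The replicate numbers did not pair the samples: over 21 pairs of same-numbered samples, the correlation of deviations from the group means was -0.063 to 0.047, and 0 were over 0.1. With the replicate block, the 8 comparisons (RfxCas13d, HiFi, DiCas7-11, their mean, the 3 NTG comparisons and the ASO) had 2, 0, 0, 6, 6, 8, 11 and 29 called members. With 3 samples a group, the standard errors printed beside the changes limit what can be called for a given member.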
